A study of Homo sapiens with 6 samples.

Results

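The genes followed here are 40 genes of protein folding, quality control and disposal in the endoplasmic reticulum (ER), taken by symbol from a list and found among the 56638 gene symbols of the count files. They were measured by RNA sequencing in human colorectal cancer cells that the labels name as SW480, an established line. The study's methods name DLD-1, another colorectal line, for the same experiment, and which line was sequenced was not tested. The 3 libraries titled control siRNA came from cells given a nonspecific siRNA, and the 3 titled GLCC1 siRNA from cells given siRNA against the lncRNA GLCC1 (lncRNA-AF339830), all kept in RPMI-1640 with fetal bovine serum. The question was how the transcriptome of these cells changed after loss of GLCC1. The labels give neither the time after transfection nor separate cultures, so p-values measure the spread between these libraries, which may be technical.

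Library names contradict the titles, because the libraries titled control carry the name AF123 and those titled GLCC1 siRNA carry the name NC. Groups below follow the titles, and under the library names every direction would be turned around. GLCC1 itself was not analysed here, since no row carries its name, so the knockdown could not be read from the counts. Exact matches to blocks of the GLCC1 sequence lie on chromosome 13 (hg19, 99049534 to 99049883, plus strand) within FARP1, which is on the same strand. This span is shorter than the length the study gives for GLCC1, and any remaining sequence was not placed. The span overlaps 1 annotated exon of FARP1, so reads of the 2 transcripts cannot be told apart there. FARP1 was at 109, 110 and 113 CPM in libraries titled control and at 63.2, 65.6 and 65.4 CPM in those titled GLCC1 siRNA, and what this says of the labels was not tested. Replicate numbers used here are those that end the titles, which do not say whether they mark replicates or different siRNA sequences. The study used more than 1 siRNA against GLCC1, and which siRNA each library received was not tested. Depth ranged from 11948790 to 19042516 counted read pairs. GLCC1 siRNA replicate 2 was the shallowest library and stood apart: its counts differed from those of the other GLCC1 siRNA libraries by 18.1 and 19.0 in chi-square per degree of freedom, against 3.28 between those libraries and at most 4.16 among controls. Its share of read pairs on no annotated gene was 14.2%, against 11.2% to 12.7% in the other libraries. Epithelial EPCAM was found at 319 CPM in controls and 258 CPM in GLCC1 siRNA libraries (CPM, counts relative to the library total, here scaled by TMM, edgeR's library scaling). Of 10 epithelial markers, EPCAM, CDH1, KRT8, KRT18, KRT19, CDX1 and LGALS4 were called lower in GLCC1 siRNA libraries, with KRT8 going from 3584 to 1177 CPM. At a mean of 10 CPM or more, 29.8% of all genes tested were called lower. CDX2 (94.6 to 80.1 CPM) and VIL1, which was higher (205 to 237 CPM), were not called. KRT20 was not called either, at 0.644 CPM in controls and 0.364 CPM in GLCC1 siRNA libraries. The part of these markers in the results was not tested. PTPRC, PECAM1, CDH5, COL1A2, DCN and LUM, which define immune, endothelial and fibroblast cells, had 0 counts in every library. Other genes of those lists were not at 0: COL1A1 (fibroblast) stood at 13.4 CPM in controls and 7.38 CPM in GLCC1 siRNA libraries and was called lower, CD14 (immune) at 3.29 and 4.39 CPM and VWF (endothelium) at 0.799 and 0.937 CPM. SDC1, of a list for plasma or secretory cells, was called higher, with 120 CPM in controls and 159 CPM in GLCC1 siRNA libraries. The other genes of that list were near the floor or absent. MZB1 stood at 0.118 and 0.240 CPM, IGJ and IRF4 had at most 4 and 2 counts in any library, and JCHAIN had no row. The part of these genes in the results was not tested.

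Secretory and membrane proteins enter the ER through the Sec61 channel, and fold there with the help of Hsp70 and Hsp90 chaperones, of the lectins calnexin and calreticulin, and of disulfide isomerases. Proteins that fail are recognized by mannosidases and lectins, passed to the SEL1L-SYVN1 ubiquitin ligase in the membrane and pulled into the cytosol by the ATPase VCP, a route called ER-associated degradation (ERAD). When misfolded proteins accumulate, the sensors ATF6, IRE1 (ERN1) and PERK (EIF2AK3) start the unfolded protein response (UPR). Cleaved ATF6 and the spliced form of XBP1 then induce many of these genes through ER stress elements in their promoters.

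The promoters of the members were read first, because these elements are the known link between the sensors and the chaperone genes. RefSeq promoter sequences (GRCh38.p14, 250 bases before to 50 after the start) were found for 37 of the 40 members, all but PDIA3, DERL1 and DERL3, and were searched on both strands. The ER stress element (ERSE) was taken as CCAAT, 9 bases of any kind and CCACG. It occurred in 22 of 27305 promoters (0.0806%), and 6 of those 22 belonged to members. Their copies are shown with the fixed bases in capitals and the position in hg19, found by an exact match of the promoter. The search took only exact matches within this window, so a member without one is not thereby set outside the UPR. The copies of HSP90B1, CANX and CRELD2 lie inside the span that GENCODE gives the gene, since the RefSeq starts lie further in.

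HSPA5 (chr9:128003670-128003688, minus strand, 66 to 48 bases before the start): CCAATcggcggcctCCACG
HSP90B1 (chr12:104323994-104324012, plus strand, 194 to 176 bases before the start): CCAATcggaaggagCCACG
HSP90B1 (chr12:104324099-104324117, minus strand, 89 to 71 bases before the start): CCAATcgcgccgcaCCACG
CALR (chr19:13049198-13049216, minus strand, 225 to 207 bases before the start): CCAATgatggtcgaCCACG
CANX (chr5:179125779-179125797, plus strand, 151 to 133 bases before the start): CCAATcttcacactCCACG
CRELD2 (chr22:50312202-50312220, minus strand, 80 to 62 bases before the start): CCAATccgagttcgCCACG
XBP1 (chr22:29196591-29196609, minus strand, 52 to 34 bases before the start): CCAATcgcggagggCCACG

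The second form, ERSE-II, was taken as ATTGG, 1 base of any kind and CCACG, and occurred in 15 promoters (0.0549%), of which 3 were those of members. These copies are shown in the same way.

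HERPUD1 (chr16:56965937-56965947, plus strand, 117 to 107 bases before the start): ATTGGgCCACG
HYOU1 (chr11:118927985-118927995, plus strand, 79 to 69 bases before the start): ATTGGaCCACG
HYOU1 (chr11:118928091-118928101, plus strand, 185 to 175 bases before the start): ATTGGaCCACG
SDF2L1 (chr22:21996403-21996413, minus strand, 188 to 178 bases before the start): ATTGGtCCACG

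No promoter of a member held both forms. Altogether 9 member promoters of 37 (24.3%) held at least 1 of the 2 motifs, against 0.136% of all promoters. Since these elements are the known link to such genes and the members were listed by function, this contrast follows from the choice and is only a description. A match describes letters and is not a measured binding site.

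Between GLCC1 siRNA and control siRNA libraries, 11 members fell, 1 rose and 28 did not pass the test at an adjusted p of 0.05 (edgeR's quasi-likelihood test, Benjamini-Hochberg adjustment over all genes tested). The members that fell were SEL1L, FAF2, OS9, EDEM2, CANX, VCP, PDIA4, DERL1, SEC61B, SYVN1 and PDIA6, and CALR rose. Of the 23074 genes tested, 31.6% were called, 14.9% as higher and 16.7% as lower, and all 40 members passed the filter on low counts. Shares of the members were 27.5% lower and 2.5% higher. At a mean of 10 CPM or more, where 39 members lay, the background was 20.1% higher and 29.8% lower, so the share of members called lower, 28.2%, was near the background of genes of that level, while that called higher, 2.56%, lay below it. The median log2 fold change was -0.03 over members and 0.03 over all genes tested, and the members ranged from -1.31 to 0.24. At a mean of 10 CPM or more the medians were -0.02 over members and -0.07 over all genes, so their order depends on the background. The 3 values of each group did not overlap in 21 members, 15 lower and 6 higher in GLCC1 siRNA libraries, beside 46.3% of all genes tested. Without GLCC1 siRNA replicate 2, 17 members were called lower and 7 higher, when 5076 and 4844 genes were called in all, against 3864 and 3429 with it. Less of a message in each cell and fewer cells that carry it cannot be told apart in such bulk libraries.

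**Figure D1:**
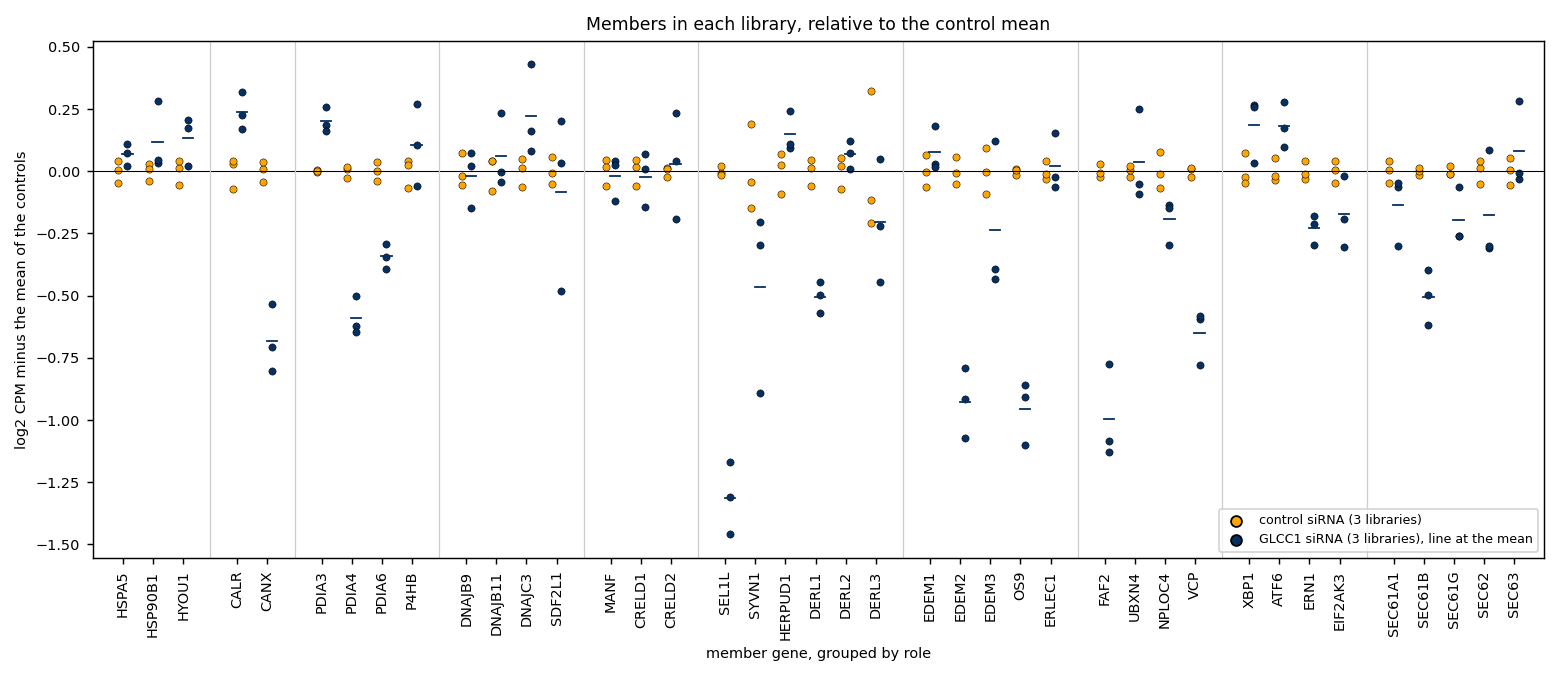
Log2 CPM of each member in each library minus the mean of the controls, with members grouped by role, control siRNA in orange and GLCC1 siRNA in dark blue with a line at its mean. All 3 GLCC1 siRNA libraries lay below the controls in the 11 members that fell, SEL1L lowest at a mean change of -1.31, while in HSPA5, MANF, CRELD1 and CRELD2 the groups overlapped.

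The 3 large luminal chaperones did not pass the test. HSPA5 encodes BiP, the ER Hsp70 and the standard marker of ER stress, and lies on chromosome 9 (hg19, 127997132 to 128003661, minus strand). It was found at 1239, 1281 and 1317 CPM in controls and at 1297, 1381 and 1344 CPM in GLCC1 siRNA libraries. The groups overlapped, and the log2 fold change was 0.07 (95% interval -0.09 to 0.22, adjusted p = 0.509). HSP90B1 encodes GRP94, the Hsp90 of the ER, and stood at 1652, 1575 and 1631 CPM in controls against 1655, 1967 and 1669 CPM. Its GLCC1 siRNA values all lay above the controls, by a narrow margin except in replicate 2, and the log2 fold change was 0.12 (interval -0.05 to 0.30, adjusted p = 0.284). HYOU1, which exchanges nucleotide on BiP, gave 0.14 (adjusted p = 0.219). With scaling by library totals alone, HSP90B1 gave 0.25 (adjusted p = 0.0392) and HYOU1 0.26 (adjusted p = 0.0209) and passed the test, a setting that also moved the median of all genes from 0.03 to 0.15. In the TMM-scaled comparison the intervals of all 3 genes ended at or below 0.31. Per kb of transcript, HSP90B1 was the most abundant member in controls at 582 CPM per kb, followed by CALR at 535, HSPA5 at 326 and CANX at 266, and DERL3 was the least abundant at 0.858.

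Calreticulin and calnexin, the soluble and the membrane-bound lectin that hold folding glycoproteins, moved in opposite directions. CANX (chromosome 5, hg19, 179105629 to 179158642, plus strand) was at 1315, 1267 and 1340 CPM in controls and at 749, 902 and 800 CPM in GLCC1 siRNA libraries. The groups lay far apart, and CANX fell by 0.68 on the log2 scale (SE 0.08, 0.625-fold, adjusted p = 3.57e-05). CALR (chromosome 19, hg19, 13049392 to 13055303, plus strand) was at 968, 1039 and 1046 CPM in controls and at 1190, 1143 and 1268 CPM. All 3 values were higher, and CALR rose by 0.24 (SE 0.08, 1.18-fold, adjusted p = 0.0275). The call of CALR was lost in 6 of 12 other settings, among them the omission of any library other than GLCC1 siRNA replicate 2, with adjusted p of 0.0505 to 0.151. The ratio of CALR to CANX counts within a library, which no scaling between libraries can change, was 0.736, 0.819 and 0.781 in controls and 1.59, 1.27 and 1.59 in GLCC1 siRNA libraries. This is a difference of 0.92 on the log2 scale. Both genes hold an ERSE in the window searched, as shown above.

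Of the 4 disulfide isomerases, 2 fell and 2 did not pass the test. PDIA4, an isomerase that works in complex with BiP, lies on chromosome 7 (hg19, 148700154 to 148725754, minus strand) and was at 621, 639 and 642 CPM in controls against 413, 405 and 448 CPM. It fell by 0.59 (SE 0.08, 0.665-fold, adjusted p = 5.16e-05) with wide separation of the groups. PDIA6, an isomerase that also damps IRE1, fell by 0.34 (adjusted p = 0.0028) from 499 to 525 CPM in controls to 390 to 419 CPM. Exons of ATP6V1C2 on the opposite strand cover 45.3% of its transcript, and where strand is not used in counting, read pairs on that stretch are given to neither gene. PDIA3, the partner of calnexin and calreticulin, was at 320, 318 and 319 CPM in controls and at 363, 381 and 356 CPM. Its groups did not overlap, but its log2 fold change of 0.20 missed the threshold (adjusted p = 0.0508). DESeq2 called it (adjusted p = 0.0260), and the processed copy PDIA3P1, at 217 CPM in controls and 246 CPM in GLCC1 siRNA libraries, can share its reads. P4HB, the classical protein disulfide isomerase, gave 0.11 (adjusted p = 0.38). The within-library ratio of PDIA4 to P4HB was 1.20 ± 0.03 (SD, n = 3) in controls and 0.742 ± 0.050 (SD, n = 3) in GLCC1 siRNA libraries.

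None of the 4 partners of BiP, and none of MANF, CRELD1 and CRELD2, passed the test. The J proteins DNAJB9, DNAJB11 and DNAJC3, which bring clients to BiP, gave log2 fold changes of -0.02, 0.07 and 0.23. DNAJC3 was the nearest to the threshold (adjusted p = 0.0957), with 94.6 to 102 CPM in controls against 104 to 133 CPM, and passed it with library totals (0.35, adjusted p = 0.0159) and without GLCC1 siRNA replicate 3 (0.30, adjusted p = 0.0447). SDF2L1, which works with DNAJB11, gave -0.05, and its replicate 2 of GLCC1 siRNA stood at 27.9 CPM against 40 and 44.9 CPM in the other replicates. MANF, a trophic protein released upon ER stress, gave -0.02, CRELD1 -0.02 and CRELD2, an ER stress responsive protein, 0.04. Their 95% intervals lay between -0.23 and 0.28. Exons of PRRT3 on the opposite strand cover 47.4% of the CRELD1 transcript.

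**Figure D2:**
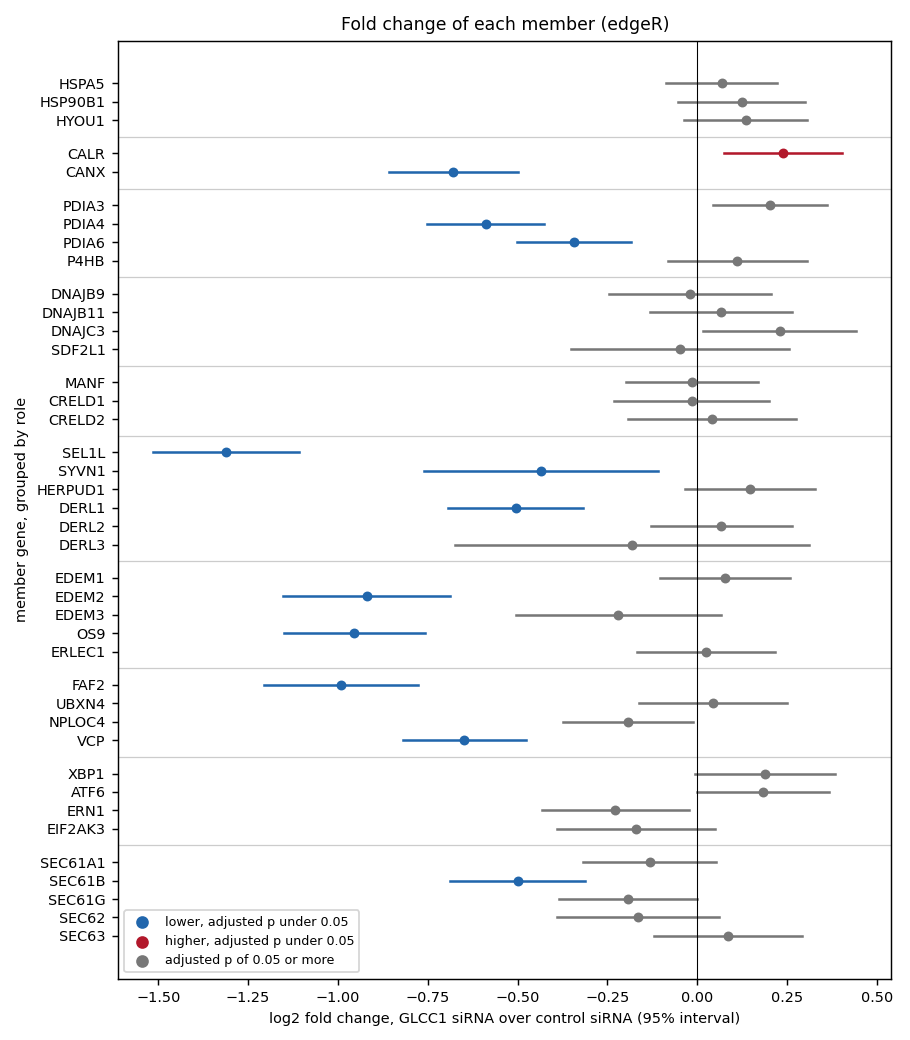
Log2 fold change of each member, GLCC1 siRNA over control siRNA, with its 95% interval from edgeR, grouped by role, blue for members called lower, red for higher and grey for those not called. The estimates ran from -1.31 for SEL1L to 0.24 for CALR, and the intervals of HSPA5, HSP90B1 and HYOU1 included 0.

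The ERAD membrane complex held the largest fall. SEL1L, the scaffold that keeps the ligase SYVN1 stable, lies on chromosome 14 (hg19, 81937891 to 82000197, minus strand, 21 exons). It was at 110, 110 and 112 CPM in controls and at 40.2, 49.2 and 44.7 CPM in GLCC1 siRNA libraries. The controls were nearly alike, no GLCC1 siRNA library reached 50 CPM, and SEL1L fell by 1.31 (SE 0.09, 0.403-fold, adjusted p = 3.71e-07). SYVN1 (HRD1), the ubiquitin ligase itself, was at 53.7, 67.9 and 57.7 CPM in controls and at 51.7, 32.1 and 48.4 CPM. It fell by 0.43 (SE 0.15, adjusted p = 0.0421), but the groups were separated by only a narrow gap and the call was lost in 5 of 12 other settings, with adjusted p of 0.0513 to 0.197, the omission of any one control library among them. DERL1, a derlin of the membrane channel through which clients leave, was at 70, 66.6 and 71.6 CPM in controls and at 49.1, 51 and 46.7 CPM, and fell by 0.51 (SE 0.09, adjusted p = 0.000563). Its paralogue DERL2 gave 0.07 (adjusted p = 0.613), and the ratio of DERL1 to DERL2 within a library was 1.80 ± 0.01 (SD, n = 3) in controls and 1.21 ± 0.01 (SD, n = 3) in GLCC1 siRNA libraries. HERPUD1, a stress-induced organizer of the complex, gave 0.15 (adjusted p = 0.206). DERL3, at 2.65 CPM in controls, could hardly be measured, and exons of SMARCB1 cover 88.8% of its transcript.

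Lectins and mannosidases, which choose the clients of this complex, contained 2 members that fell. OS9, a lectin that delivers glycoproteins to SEL1L (chromosome 12, hg19, 58087624 to 58122125, plus strand), was at 96.7, 98.3 and 98 CPM in controls and at 45.5, 52.1 and 53.8 CPM. It fell by 0.95 (SE 0.09, 0.516-fold, adjusted p = 4.29e-06). EDEM2, the mannosidase of the first trimming step (chromosome 20, hg19, 33703167 to 33735139, minus strand), was at 27.2, 29.3 and 28 CPM in controls and at 14.9, 13.4 and 16.2 CPM. It fell by 0.92 (SE 0.11, 0.529-fold, adjusted p = 2.49e-05), and in both genes every GLCC1 siRNA value was far below every control. The related EDEM1 gave 0.08 (adjusted p = 0.522) and the lectin ERLEC1, which acts beside OS9, gave 0.02 (adjusted p = 0.865). EDEM3 was at 65.9, 58 and 61.7 CPM in controls and at 47.1, 67.2 and 45.8 CPM, where replicate 2 lay above every control and the other replicates below. Its log2 fold change was -0.22 (adjusted p = 0.233), and -0.41 without that library (adjusted p = 1.00e-06). The ratio of EDEM2 to EDEM1 was 0.204 ± 0.008 (SD, n = 3) in controls and 0.103 ± 0.016 (SD, n = 3) in GLCC1 siRNA libraries.

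The 4 ratios, CALR to CANX, PDIA4 to P4HB, DERL1 to DERL2 and EDEM2 to EDEM1, were chosen after the fold changes were seen and are given as a description of unequal change between related genes. The log2 differences were 0.92, -0.69, -0.57 and -1.01. In all 4 the libraries of the groups did not overlap. An exact two-sided permutation test over the 6 libraries gave p = 0.1 for each, without adjustment over the 4. This is the smallest that 3 against 3 libraries allow. Because the pairs were picked for their unequal change, the separation and this p-value followed from the choice and carry no support.

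Of the 4 genes of extraction from the membrane, 2 were called lower. FAF2, a membrane protein that recruits VCP to the ER (chromosome 5, hg19, 175874629 to 175937075, plus strand), was at 148, 150 and 154 CPM in controls and at 68.8, 87.8 and 71 CPM. It fell by 0.99 (SE 0.10, 0.503-fold, adjusted p = 6.61e-06). VCP, the ATPase itself (chromosome 9, hg19, 35053925 to 35072665, minus strand), was at 492, 503 and 504 CPM in controls and at 331, 291 and 334 CPM. It fell by 0.65 (SE 0.08, 0.638-fold, adjusted p = 3.86e-05). Neither gene had overlapping groups. NPLOC4, a cofactor that VCP uses to bind ubiquitin chains, gave -0.19 (adjusted p = 0.101), and UBXN4, another ER tether of VCP, gave 0.04 (adjusted p = 0.763). Summed over these 4 genes, the level was 969 to 999.8 CPM in controls and 717 to 725 CPM in GLCC1 siRNA libraries.

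**Figure D3:**
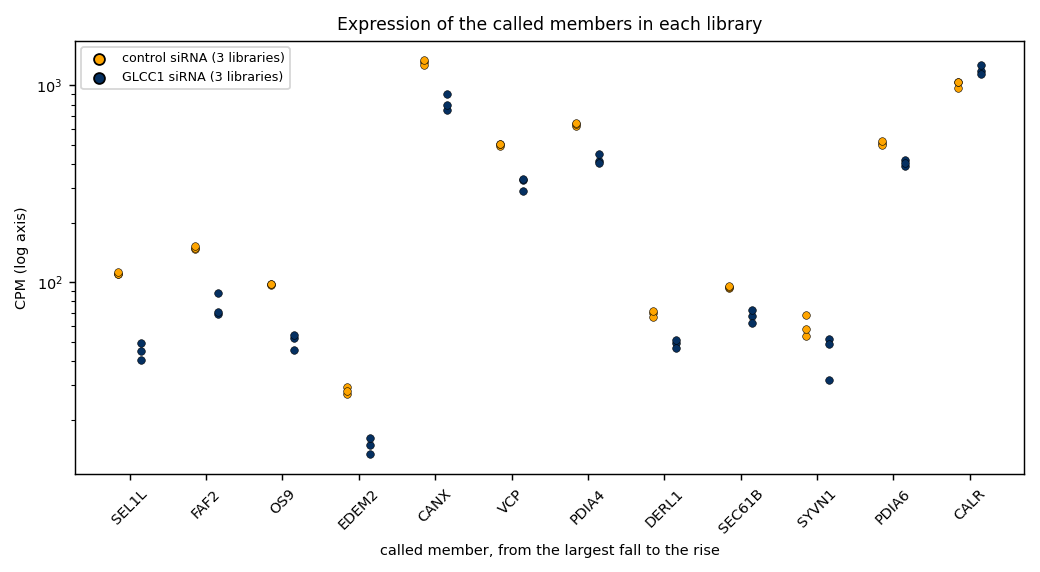
CPM of the 12 called members in each library on a log axis, control siRNA in orange and GLCC1 siRNA in dark blue, ordered from the largest fall to the rise. In SEL1L the controls lay at 110 to 112 CPM and the GLCC1 siRNA libraries at 40.2 to 49.2 CPM, whereas the groups of SYVN1 nearly touched, at 53.7 and 51.7 CPM.

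Messages of the 3 stress sensors and of XBP1 did not pass the test. XBP1, the transcription factor made active by IRE1, was at 99.5, 97.9 and 106 CPM in controls and at 103, 122 and 121 CPM. ATF6, the sensor that is cleaved into a transcription factor, was at 84.3, 85.4 and 89.7 CPM in controls and at 92.4, 105 and 97.6 CPM. Both were higher on average, with log2 fold changes of 0.19 (adjusted p = 0.135) and 0.18 (adjusted p = 0.12), and only those of ATF6 did not overlap. ERN1, the gene of the kinase and RNase IRE1, was at 27.7, 29.2 and 28.1 CPM in controls and at 25, 23.1 and 24.4 CPM. EIF2AK3, the gene of the kinase PERK, was at 33.3, 32.5 and 31.3 CPM in controls and at 26.2, 32 and 28.3 CPM. These 2 were lower on average, at -0.23 (adjusted p = 0.0869) and -0.17 (adjusted p = 0.226). Without GLCC1 siRNA replicate 2 these genes all passed the test in those directions, at 0.15, 0.14, -0.19 and -0.24. In that setting 9920 of all genes were called, against 7293 with all libraries. Splicing of XBP1, cleavage of ATF6 and phosphorylation of the kinases, which report their activity, cannot be seen in counts per gene.

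In the translocon, SEC61B, the small beta subunit of the channel (chromosome 9, hg19, 101984346 to 101992897, plus strand), was at 94, 95.2 and 96.1 CPM in controls and at 67.4, 61.9 and 72.3 CPM. It fell by 0.50 (SE 0.09, 0.707-fold, adjusted p = 0.000632). The pore subunit SEC61A1 gave -0.13 (adjusted p = 0.27) and the gamma subunit SEC61G gave -0.19 (adjusted p = 0.118), with all their GLCC1 siRNA values below the controls, those of SEC61A1 by a very narrow margin. SEC62 and SEC63, accessory proteins that assist entry after translation, gave -0.17 and 0.09. In SEC62 replicate 2 lay above the controls at 175 CPM while the other GLCC1 siRNA libraries stood at 133 and 134 CPM.

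Members with a promoter motif and those without were then placed side by side. Of the 9 with an ERSE or ERSE-II, CALR rose, CANX fell and 7 did not pass the test. Their median log2 fold change was 0.12, and that of the members without either motif was -0.17. SEL1L, FAF2, OS9 and EDEM2, the members with the largest falls, held neither motif in the window searched. Only 9 of the 37 member promoters (24.3%) held a motif, so its absence was the common case. The difference between the 2 sets was not tested.

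**Figure D4:**
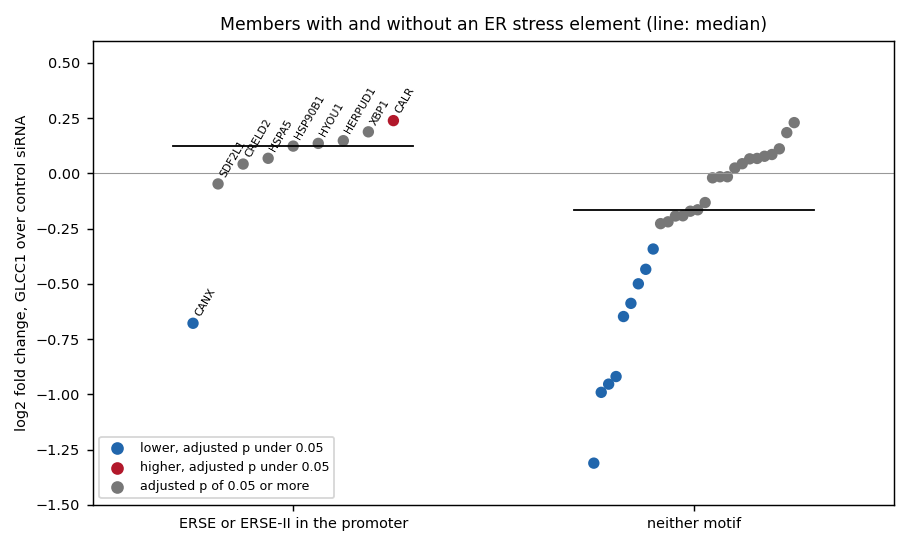
Log2 fold change, GLCC1 siRNA over control siRNA, of the 37 members with a promoter sequence, split by whether the promoter holds an ERSE or ERSE-II, coloured by call, with the median as a line. The medians were 0.12 with and -0.17 without a motif, and CANX was the member with a motif that fell.

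Other genes of the ER pathways were read from 7 lists of 111 symbols, of which 109 were tested (ERP27 fell below the filter, and TRC8 is another name of RNF139 without a row). Of these, 45 fell (41.3%) and 20 rose (18.3%), with a median of -0.20, beside 16.7% lower and 14.9% higher over all genes tested, and 29.8% and 20.1% at 10 CPM or more. The counts of each list below stand beside the same background, and no list was tested against it. Among the outputs of PERK, ATF4, the transcription factor that this arm translates, rose by 0.52 (321 to 460 CPM), TRIB3, a pseudokinase induced by it, by 1.16 (57.6 to 129 CPM) and DDIT3, the factor CHOP, by 0.42, whereas CHAC1, a further target, fell by 0.86. Thus 3 of 6 genes of that list rose and 1 fell, while PPP1R15A (0.01) and ATF3 (0.13) did not pass the test. The list is named after PERK, and whether PERK had a part in these changes was not tested. Among 10 other UPR regulators 1 rose and 4 fell, including WFS1, a membrane protein of the ER (-0.79), MBTPS2, the protease that completes the cleavage of ATF6 (-0.73), and RTCB, the ligase that joins the exons of XBP1 (-0.61).

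Of the 7 lists, that of targeting and translocation had the largest share of falls, 15 of 23, with 2 rises. The signal recognition particle subunits SRP68, SRP14 and SRP72 fell by 1.16, 0.61 and 0.59. Of 24 further ERAD genes 11 fell and 2 rose. Among them the ubiquitin ligases RNF185 and STUB1 fell by 1.06 and 0.93. Among 16 genes of N-glycosylation and glycan trimming 7 fell and 4 rose. GANAB, the catalytic subunit of glucosidase II that prepares glycoproteins for calnexin and calreticulin, rose by 1.68 from 242 ± 4 to 777 ± 51 CPM (SD, n = 3 each), while MLEC, a lectin for the diglucosylated glycan, fell by 0.95 and RPN1, a subunit of the oligosaccharyltransferase, fell by 0.62.

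Oxidative folding genes split, with 6 rises and 4 falls of 15 tested. PRDX4, the ER peroxiredoxin, rose by 0.95, TMX4, a membrane isomerase, rose by 0.53 and the isomerase PDIA5 fell by 0.74. Of 15 other luminal folding factors 2 rose and 3 fell, FKBP14 rising by 0.51 and FKBP2 and RCN1 each falling by 0.51. All of these comparisons rest on the same 6 libraries as those of the members.

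**Figure D5:**
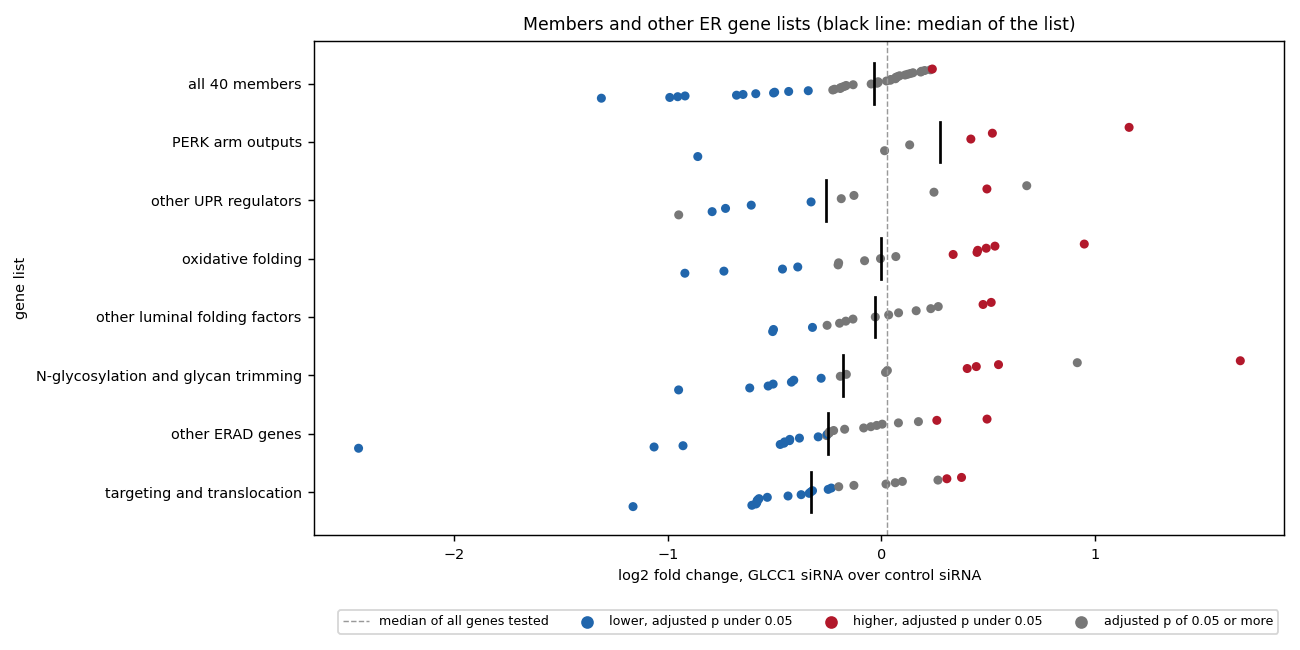
Log2 fold change, GLCC1 siRNA over control siRNA, of the 40 members and of 7 further lists of ER genes, 1 point per gene, coloured by call, with the median of each list as a black line and that of all genes tested as a dashed line. The list of targeting and translocation genes had the lowest median, -0.33, and that of PERK outputs the highest, 0.28, and GANAB was the gene with the largest rise, 1.68.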

How the data were processed

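The authors mapped paired-end reads to hg19 with TopHat 2.0.11, counted read pairs per gene with HTSeq in union mode and deposited raw counts per gene symbol, without normalization. Reads that overlap 2 genes are given to neither in that mode. From these counts, edgeR 4.0.16 (R 4.3.3; TMM scaling, robust quasi-likelihood test, Benjamini-Hochberg adjustment) compared 3 against 3 libraries over 23074 genes, after removal of genes with fewer than 5 counts summed in each of both groups. CPM are TMM-scaled. The share of read pairs on no gene was left out of totals (11.2% to 14.2%). The members, role groups and lists were chosen with earlier results of these data known. Every member is named. Values in each library are given for members called at an absolute log2 fold change of at least 0.5. They are also given for the sensors, XBP1, HSPA5, HSP90B1, CALR and CANX, and beyond the rule for members whose values depend on 1 library. From each list the 3 largest called changes at 10 CPM or more are named, CHAC1 beyond this rule, and 1 gene that the rule would name is not reported here. Lengths and overlaps came from canonical transcripts of GENCODE 44 on hg19. DESeq2 1.42.0, other scalings, filters, a replicate block, omission of each library and the groups of the library names were tried. The planned searches for the XBP1 site and of protein ends were not run. The test was checked on simulated counts.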

Additional observations from a re-analysis of the deposited data

Results flagged for a closer look

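Read pairs that HTSeq gave to no gene, a tally that enters no fold change above, made up 13.2% ± 0.95 (SD, n = 3) of the pairs in GLCC1 siRNA libraries. In controls they made up 11.3% ± 0.17 (SD, n = 3). They were singled out because their share exceeded the control level. GLCC1 siRNA replicate 2 had the highest share, 14.2%. The part of this share in the fold changes of the ER genes was not tested. With 3 libraries in a group, no single library was tested as an outlier.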

How the results depend on the processing

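Of the 11 members called lower, 10 stayed called in all 12 other settings, SYVN1 being the exception. Among 480 single-member values, 426 kept their direction and side of the threshold, 11 lost the call, 24 gained one and 19 changed sign. The number of members called higher was 2 with DESeq2, 2 with DESeq2 size factors, 8 with library totals, 3 with a filter of 10 counts in every library, 0 with the replicate block, and 0 to 7 when one library was left out. The number called lower was 10 to 17 upon leaving out one library. The median over members was -0.023 with DESeq2 size factors, 0.087 with library totals, 0.0038 with the filter of 10 counts, 0.034 under the groups of the library names, and -0.081 to -0.029 when one library was left out. With library totals the median of all genes moved from 0.03 to 0.15 and the share of higher among called genes from 47.0% to 62.9%. In that setting the members' median stayed below that of all genes tested, which are not matched to the members in level. DNAJC3, HSP90B1, HYOU1, PDIA3, HERPUD1, XBP1 and ATF6 then passed the test as higher.

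The replicate numbers did not pair the libraries: deviations of same-numbered libraries correlated at -0.13, -0.25 and -0.0026 over 14875 genes. With the replicate number as a block the median of the members was -0.048, 11 members were called lower, and CALR lost its call (adjusted p = 0.0691).

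All changes of sign were in members that did not pass the test. With library totals DNAJB9 gave 0.10, SDF2L1 0.073, MANF 0.11 and CRELD1 0.11, and with the filter of 10 counts DNAJB9 gave 0.018, MANF 0.022 and CRELD1 0.022. Without GLCC1 siRNA replicate 2, DNAJB11 gave -0.020, SDF2L1 0.12, MANF 0.038, CRELD1 0.045, ERLEC1 -0.038, UBXN4 -0.067 and SEC63 -0.016. Leaving out another library gave 0.0055 for MANF, 0.018 and 0.049 for DNAJB9, 0.0049 for CRELD1 and -0.064 for CRELD2. With one library left out, the opposite ends of the ranges were -0.060 for DNAJB9, -0.19 for SDF2L1, -0.047 for MANF, -0.059 for CRELD1 and 0.068 for ERLEC1. The cause of these shifts was not tested. DERL3, the member with the fewest counts, had the widest interval, from -0.67 to 0.31.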
